A study of Mus musculus with 6 samples.

Results

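Mapt and Prnp are the mouse genes of tau and of the prion protein. They were followed here as the genes that a tau P301S transgene could touch, in nuclei sorted from mouse hippocampus for PU.1, the transcription factor of microglia and other macrophages. The members are these 2 genes among the 31053 features of each count matrix, and they were chosen by name. Each of the 6 genotypes gave 1 library, made from a pool of 3 mice aged 9.5 months. The groups were P301S/E4/TREM2- and P301S/E4/TREM2+, with tau P301S and human APOE4, P301S/EKO/TREM2- and P301S/EKO/TREM2+, with tau P301S and no Apoe, and E4/TREM2- and E4/TREM2+, with human APOE4 and no P301S. TREM2- stands for deletion of Trem2, a receptor of microglia that binds lipids, and TREM2+ for its presence. EKO occurred here only together with P301S, so in P301S/EKO against E4 the effects of tau and of APOE cannot be told apart.

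Tau binds and stabilises microtubules, mainly in the axons of neurons, and aggregates in tauopathies such as frontotemporal dementia, in which P301S is a disease mutation. The prion protein is a cell surface glycoprotein held by a lipid anchor, abundant in neurons and also made by glia. In the P301S line widely used in this field, a human MAPT cDNA is driven by the mouse Prnp promoter. The labels give the allele only, so promoter and cDNA are stated here as background. The matrices have no feature for human MAPT, and which feature transgene reads went to was not analysed here. The chemistry counts unique molecular identifiers (UMIs) near the 3' ends of transcripts, and a UMI in a nucleus can also come from RNA set free by other cells.

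Mapt (ENSMUSG00000018411) lies on chr11:104231390-104332090 of mm10, plus strand, with 8 coding transcripts of 4 to 13 exons. Prnp (ENSMUSG00000079037) lies on chr2:131909928-131938429, plus strand, with 1 coding transcript of 3 exons, of which 1 holds the coding sequence. Prn overlaps Prnp on the same strand, Gm11659 is antisense within Mapt, and Prnd, which encodes the prion-like protein doppel, is a neighbour of Prnp. These 3 genes had 0 UMIs in every library, where a floor of 3 counts was between 0.344 and 0.895 CPM (UMIs of the gene scaled to a common library total). The 250 bases before the Prnp start are shown because the transgene of that line depends on this promoter. They come from RefSeq (GRCm38.p6, chr2:131909678-131909927, plus strand) and have a GC content of 58.8%. Capitals mark matches, on either strand, to the GC box GGGCGG, the CCAAT box and the TATA box TATAAA.
Prnp promoter: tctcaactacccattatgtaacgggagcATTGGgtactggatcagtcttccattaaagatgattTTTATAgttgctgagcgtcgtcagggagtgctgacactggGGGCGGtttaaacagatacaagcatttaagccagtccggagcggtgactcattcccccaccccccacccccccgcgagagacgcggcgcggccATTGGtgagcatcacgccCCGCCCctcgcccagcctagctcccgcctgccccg
The window held 2 matches to the GC box, 2 to the CCAAT box and 1 to the TATA box, with no overlap among them. The TATA match lay 186 bases before the start and in reverse orientation (TTTATA), so it is not shown to be a working TATA box. These are matches of letters only, and their use was not tested. Among 32851 RefSeq promoters, 32.7% held a match to the GC box, 33.8% to the CCAAT box and 12.4% to the TATA box in the same window length.

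The matrices held 33335 nuclei with 29794968 UMIs, from 3351882 to 8717000 per library, and median UMIs per nucleus were between 553 and 914. After leaving out nuclei with under 200 detected genes or over 5% mitochondrial UMIs, 31738 remained. Libraries shared between 5 and 13 cell barcodes in each of 15 pairs. Trem2 had 585, 480 and 369 CPM in the TREM2- macrophage nuclei of P301S/E4, P301S/EKO and E4, against 1119, 994 and 941 CPM in TREM2+. It was lower in TREM2- in each background but was not at 0, and the labels do not give the deleted part of the gene. Apoe had 9.12 CPM with P301S/EKO/TREM2- and 13.9 CPM with P301S/EKO/TREM2+, against 184 to 1186 CPM in the libraries with APOE4.

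Nuclei were called neuron-rich when they held at least 15 UMIs over Snap25, Syt1, Meg3, Rbfox1, Kcnip4 and Nrg3. Of the others, nuclei with at least 5 UMIs over 24 macrophage genes such as Csf1r, C1qa and Cx3cr1 were called macrophage nuclei. This gave 119 neuron-rich nuclei, 31454 macrophage nuclei and 165 remaining nuclei. The neuron-rich nuclei numbered 16, 6, 13 and 3 in P301S/E4/TREM2-, P301S/E4/TREM2+, P301S/EKO/TREM2- and P301S/EKO/TREM2+, against 57 in E4/TREM2- and 24 in E4/TREM2+. A panel of 20 other neuronal genes, fixed apart from the 6 of the rule, had 17019 to 25543 CPM in neuron-rich nuclei and 109 to 313 CPM in macrophage nuclei. The macrophage genes had 25646 to 34036 CPM in macrophage nuclei. Of the neuron-rich nuclei, 42 also held 5 or more macrophage UMIs. The remaining nuclei were rich in astrocyte genes, at 2816 to 15903 CPM, and in oligodendrocyte genes, at 3564 to 12032 CPM. They also held the neuronal panel, at 1385 to 8101 CPM with P301S and 7749 to 10157 CPM in E4, where it was above the astrocyte genes in both libraries.

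Mapt and Prnp UMIs were found mostly in macrophage nuclei, which were nearly all nuclei, but their levels were higher in the other classes. Macrophage nuclei held 597 of 803 Mapt UMIs (74.3%) and 1050 of 1307 Prnp UMIs (80.3%), with 97.8% of all UMIs. Neuron-rich nuclei held 18.2% of Mapt and 11.4% of Prnp UMIs, with 1.59% of all UMIs and 0.375% of the nuclei. In E4/TREM2-, the library with most neuron-rich nuclei, that class held 51.6% of the Mapt UMIs (95% exact binomial interval 41.1% to 62.0%). Intervals here cover counting error only and not the spread between mice.

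In macrophage nuclei, Mapt had 13.9 CPM in P301S/E4/TREM2-, 28.7 in P301S/E4/TREM2+, 35.5 in P301S/EKO/TREM2- and 33.6 in P301S/EKO/TREM2+, against 11.6 in E4/TREM2- and 11.9 in E4/TREM2+. The lowest P301S library, P301S/E4/TREM2-, lay close above the E4 libraries, with an exact Poisson interval of 11.5 to 16.7 CPM that takes in both E4 values. The other 3 P301S libraries were near each other and well above E4. The mean was 27.9 ± 9.79 CPM (SD, n = 4 libraries) with P301S and 11.7 ± 0.191 CPM (SD, n = 2) in E4, a ratio of 2.38. In the order of levels, both P301S/EKO libraries and P301S/E4/TREM2+ did not differ beyond their Poisson intervals, nor did P301S/E4/TREM2- and the E4 libraries.

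Prnp had 25.0 CPM in the macrophage nuclei of P301S/E4/TREM2-, 55.4 in P301S/E4/TREM2+, 67.1 in P301S/EKO/TREM2- and 44.8 in P301S/EKO/TREM2+, against 24.3 in E4/TREM2- and 18.3 in E4/TREM2+. As with Mapt, P301S/E4/TREM2- lay beside the E4 libraries and the other 3 P301S libraries lay above them. The mean was 48.1 ± 17.9 CPM with P301S (SD, n = 4 libraries) and 21.3 ± 4.26 CPM in E4 (SD, n = 2), a ratio of 2.26. Both genes thus had every P301S library above both E4 libraries, which was true of 17.6% of the 12136 genes tested in macrophage nuclei. CPM from 3' ends are not corrected for length, so the levels of Mapt and Prnp are not compared with each other.

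**Figure D1:**
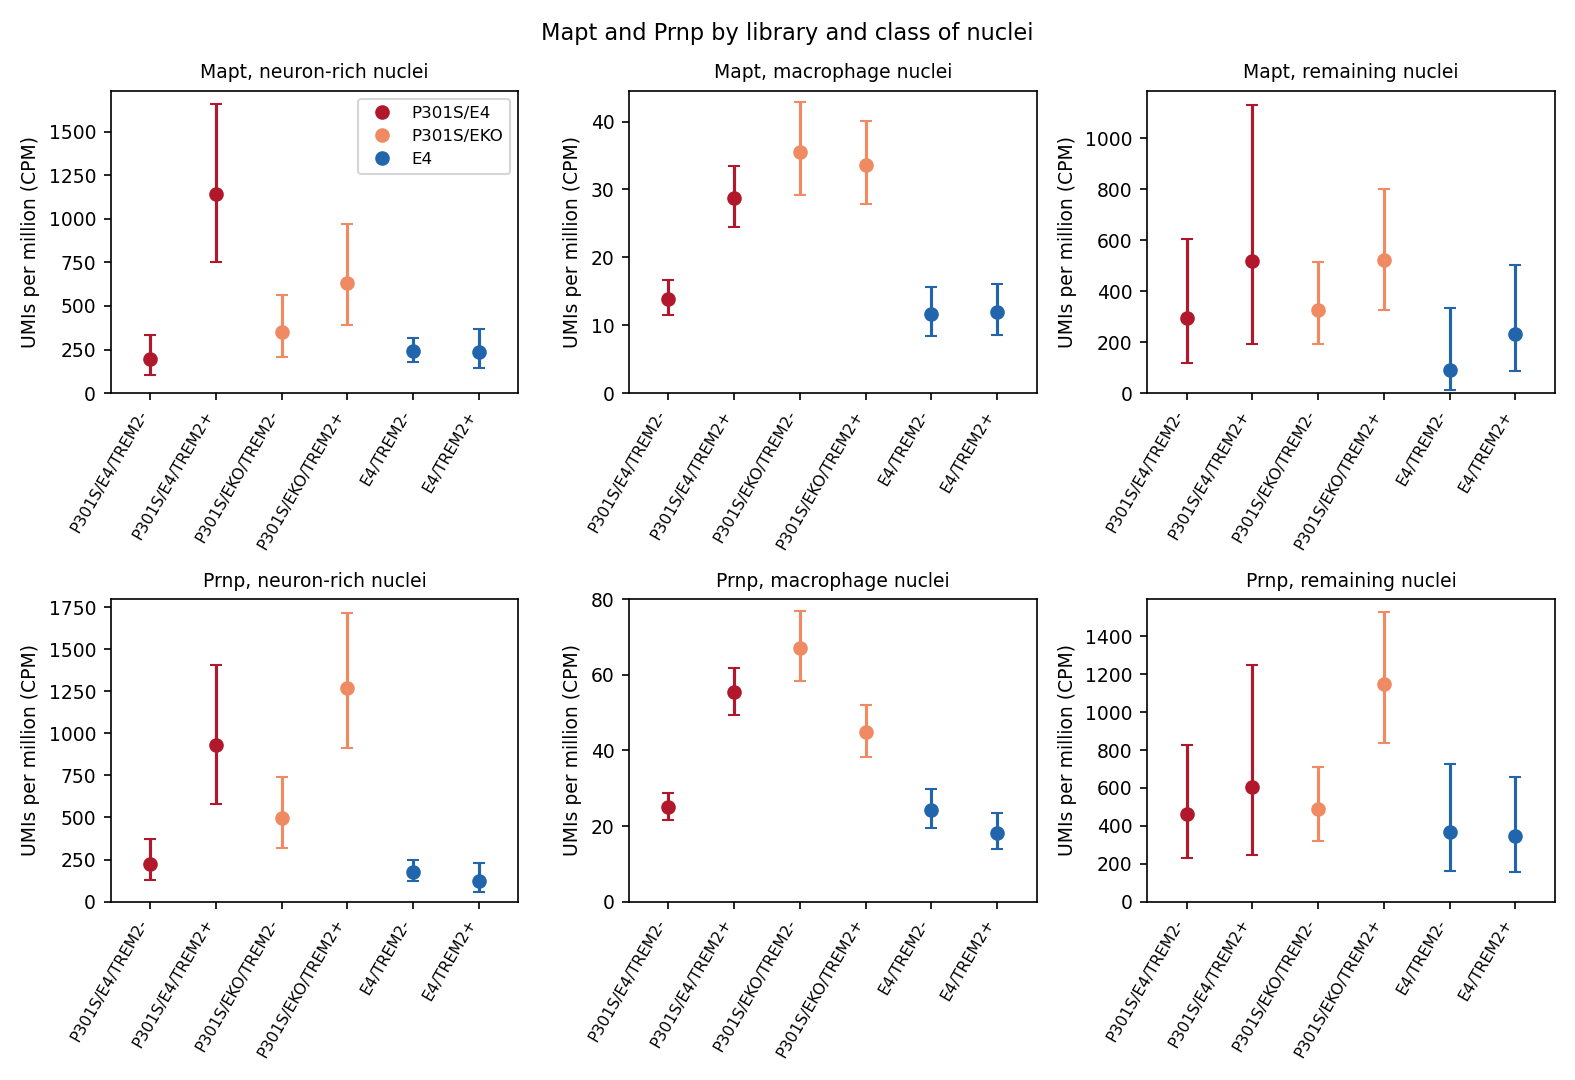
Levels of Mapt (top) and Prnp (bottom) in CPM, with exact 95% Poisson intervals, for each of the 6 libraries in neuron-rich, macrophage and remaining nuclei. In macrophage nuclei P301S/E4/TREM2- lies beside the E4 libraries and the other 3 P301S libraries lie above them, and the vertical scale differs between panels.

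In neuron-rich nuclei, Mapt had 194 CPM in P301S/E4/TREM2-, 1140 in P301S/E4/TREM2+, 353 in P301S/EKO/TREM2- and 635 in P301S/EKO/TREM2+, against 241 in E4/TREM2- and 236 in E4/TREM2+. These are 13, 27, 17 and 21 UMIs with P301S, against 49 and 19 in E4. P301S and E4 libraries overlapped for Mapt, since P301S/E4/TREM2- was the lowest of all.

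Prnp in neuron-rich nuclei had 224 CPM in P301S/E4/TREM2-, 929 in P301S/E4/TREM2+, 499 in P301S/EKO/TREM2- and 1269 in P301S/EKO/TREM2+, against 177 in E4/TREM2- and 124 in E4/TREM2+. The groups did not overlap for Prnp, which was true of 3.34% of the 718 genes tested in this class. These levels rested on few nuclei. A single nucleus of P301S/EKO/TREM2+ held 41 of the 42 Prnp UMIs of its class and 14 of the 21 Mapt UMIs. A single nucleus of P301S/E4/TREM2+ held 17 of 22 Prnp and 16 of 27 Mapt UMIs, and one of P301S/EKO/TREM2- held 10 of 24 and 10 of 17.

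These nuclei also held 101, 35 and 182 UMIs of the 7 astrocyte genes, beside 102, 48 and 36 UMIs over the 6 neuronal genes of the rule, and the part of the astrocyte RNA in the result was not tested. Without the nucleus with most Mapt and Prnp UMIs together in each library, Prnp had 179, 314, 396 and 67.9 CPM in P301S/E4/TREM2-, P301S/E4/TREM2+, P301S/EKO/TREM2- and P301S/EKO/TREM2+, against 161 in E4/TREM2- and 99.1 in E4/TREM2+. The P301S and E4 libraries then overlapped through P301S/EKO/TREM2+, whose value is 1 UMI (1.72 to 378 CPM). The other 3 P301S libraries were above both E4 libraries but rested on 11, 5 and 14 UMIs. Their intervals (89.4 to 320, 102 to 732 and 216 to 664 CPM) overlapped that of E4/TREM2- (110 to 227 CPM). Mapt without these nuclei had 212, 690, 198 and 475 CPM in the same P301S libraries, against 231 in E4/TREM2- and 227 in E4/TREM2+. At the edge of the rule, 12 nuclei with 10 to 14 rule UMIs had 486 CPM of Mapt and 994 of Prnp, and 9 nuclei with 15 to 19 had 47.6 and 95.2 CPM.

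In the remaining nuclei, Mapt had 294, 519, 326 and 523 CPM in P301S/E4/TREM2-, P301S/E4/TREM2+, P301S/EKO/TREM2- and P301S/EKO/TREM2+, against 92.3 CPM in E4/TREM2- and 231 in E4/TREM2+. Prnp had 462, 606, 489 and 1147 CPM in these P301S libraries, against 369 CPM in E4/TREM2- and 347 in E4/TREM2+. Each E4 value rests on 2 to 9 UMIs. Every P301S library lay above both E4 libraries for both genes, as did 9.03% of the 421 genes with at least 50 UMIs in this class. The 7 astrocyte genes in these nuclei summed to 5021 to 15903 CPM with P301S, against 2816 and 4665 CPM in E4, with 1 to 3 of the 7 at 0 in 5 of 6 libraries, and the 6 rule genes to 86.6 to 997 CPM, against 3416 and 2120 CPM in E4. Their part in the result was not tested. Over all nuclei the groups overlapped. Mapt was 16.1 to 45.4 CPM with P301S and 18.5 to 23.7 in E4, and Prnp 27.8 to 81.0 and 23.0 to 33.9 CPM.

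Shares of nuclei with a UMI depend on depth, so each nucleus was thinned to 500 UMIs, which left out 3663 shallower macrophage nuclei, all from P301S/EKO/TREM2-, E4/TREM2- and E4/TREM2+. Thinned, 277 of 27791 macrophage nuclei (0.997%, exact interval 0.883% to 1.12%) had a Mapt UMI and 493 (1.77%, 1.62% to 1.94%) had a Prnp UMI. The Mapt share was 0.703%, 1.35%, 1.73% and 1.54% in P301S/E4/TREM2-, P301S/E4/TREM2+, P301S/EKO/TREM2- and P301S/EKO/TREM2+, against 0.415% in E4/TREM2- and 0.477% in E4/TREM2+. The Prnp share was 1.31%, 2.48%, 3.14% and 2.10% in these P301S libraries, against 1.11% and 0.730% in E4/TREM2- and E4/TREM2+. Every P301S library was again above E4, and P301S/E4/TREM2- was the nearest to it. These shares come from the same UMIs as the CPM levels, where 17.6% of 12136 genes had this order. How many genes have this order by thinned shares was not computed. Neuron-rich nuclei had shares of 8.40% (4.10% to 14.9%) for Mapt and 11.8% (6.58% to 18.95%) for Prnp, and remaining nuclei 12.5% and 20.8%. Unthinned, the macrophage shares were 1.35% to 3.00% with P301S and 0.675% to 0.821% in E4 for Mapt, and 2.58% to 4.15% and 1.05% to 1.64% for Prnp.

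An additive fit over the 6 libraries in edgeR, with background and TREM2 genotype as terms, gave the tests. It borrows its spread from departures from additivity, with 2 residual degrees of freedom, since no genotype had a second library. TREM2 effects that differ between backgrounds also enter these departures. The spread was shared across genes, at 8.62 prior degrees of freedom in macrophage nuclei. In neuron-rich nuclei the prior was infinite, so a gene's own spread between libraries did not enter its p-value. The p-values rest on these pools only. In macrophage nuclei of P301S/E4 against E4, Mapt had a log2 fold change of 0.73 (SE 0.31, edgeR adjusted p = 0.159) and Prnp of 0.81 (SE 0.37, edgeR adjusted p = 0.199). Neither passed the threshold of 0.05, which 13.3% of the 12136 tested genes passed in this comparison. The library pairs differed by TREM2 genotype. P301S/E4/TREM2+ over E4/TREM2+ was 1.27 on the log2 scale for Mapt (95% counting interval 0.77 to 1.81) and 1.60 for Prnp (1.21 to 2.02), and P301S/E4/TREM2- over E4/TREM2- was 0.26 (-0.26 to 0.79) and 0.042 (-0.32 to 0.41). Without P301S/E4/TREM2-, the fit gave 1.29 for Mapt and 1.64 for Prnp, and without P301S/E4/TREM2+ 0.10 and -0.12. Each of these fits left 1 library in the P301S/E4 background, so effect sizes only are given. Whether either gene was called depended on the library left out.

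In macrophage nuclei of P301S/EKO against E4, Mapt rose with a log2 fold change of 1.50 (SE 0.31, edgeR adjusted p = 0.0277), or 2.82-fold. Prnp had 1.33 (SE 0.38, edgeR adjusted p = 0.111), not called. Of the tested genes, 2.93% were called in this comparison, 1.72% upward. Both library pairs pointed upward, with 1.61 for Mapt and 1.47 for Prnp in TREM2- and 1.50 and 1.29 in TREM2+, and no counting interval reached 0. With 1 library left out at a time, the log2 fold change ran from 1.10 to 1.89 for Mapt and from 0.71 to 1.84 for Prnp. For Mapt it was 1.10, 1.76 and 1.25 without P301S/EKO/TREM2-, E4/TREM2- and E4/TREM2+. Whether Mapt or Prnp was called depended on the library left out. Each of these fits left 1 library in a background, so effect sizes only are given.

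Between TREM2- and TREM2+ macrophage nuclei over the 3 backgrounds, the log2 fold change was -0.36 for Mapt (SE 0.24, edgeR adjusted p = 0.948) and -0.094 for Prnp (SE 0.30, edgeR adjusted p = 0.993), in a comparison that called 0.14% of genes. The backgrounds did not move alike. TREM2- over TREM2+ was -1.05 for Mapt (-1.41 to -0.70) and -1.15 for Prnp (-1.41 to -0.89) in P301S/E4, 0.081 (-0.30 to 0.47) and 0.58 (0.28 to 0.89) in P301S/EKO, and -0.033 (-0.68 to 0.62) and 0.41 (-0.067 to 0.90) in E4. Summed transcripts of the neuronal panel moved in the same pairs by -0.76, 0.31 and 0.15, and the astrocyte genes by -0.73, 0.20 and 0.17. Their part in the result was not tested. Between P301S/E4 and P301S/EKO, the fit gave -0.76 for Mapt (SE 0.28, edgeR adjusted p = 0.209) and -0.51 for Prnp (SE 0.35, edgeR adjusted p = 0.528), where 2.35% of genes were called.

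In neuron-rich nuclei, 718 genes could be tested. In P301S/E4 against E4, Mapt had a log2 fold change of 1.08 (edgeR adjusted p = 0.852) and Prnp of 1.53 (edgeR adjusted p = 0.308), and 0.418% of genes were called. In P301S/EKO against E4, Prnp was called at 2.11 (SE 0.49, edgeR adjusted p = 0.00112), Mapt had 0.77 (edgeR adjusted p = 0.492), and 3.62% of genes were called, 2.37% upward. The call of Prnp was lost with DESeq2 (2.16, adjusted p = 0.108) and in nuclei with under 5 macrophage UMIs (1.04, edgeR adjusted p = 0.998). It also depended on the library left out, with effect sizes from 1.26 to 3.20 over those fits. Without the nucleus with most Mapt and Prnp UMIs together in each library, Prnp no longer passed the filter on low counts and 0 genes were called in that comparison. TREM2- against TREM2+ gave -0.78 for Mapt and -0.73 for Prnp (edgeR adjusted p = 0.293 and 0.359, 3.34% of genes called). P301S/E4 against P301S/EKO gave 0.31 and -0.59 (edgeR adjusted p = 0.871 and 0.682, 2.09% called). Over all nuclei, P301S/E4 against E4 gave 0.14 for Mapt and 0.53 for Prnp (edgeR adjusted p = 0.829 and 0.355), in a comparison that called 17% of 12515 genes.

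**Figure D2:**
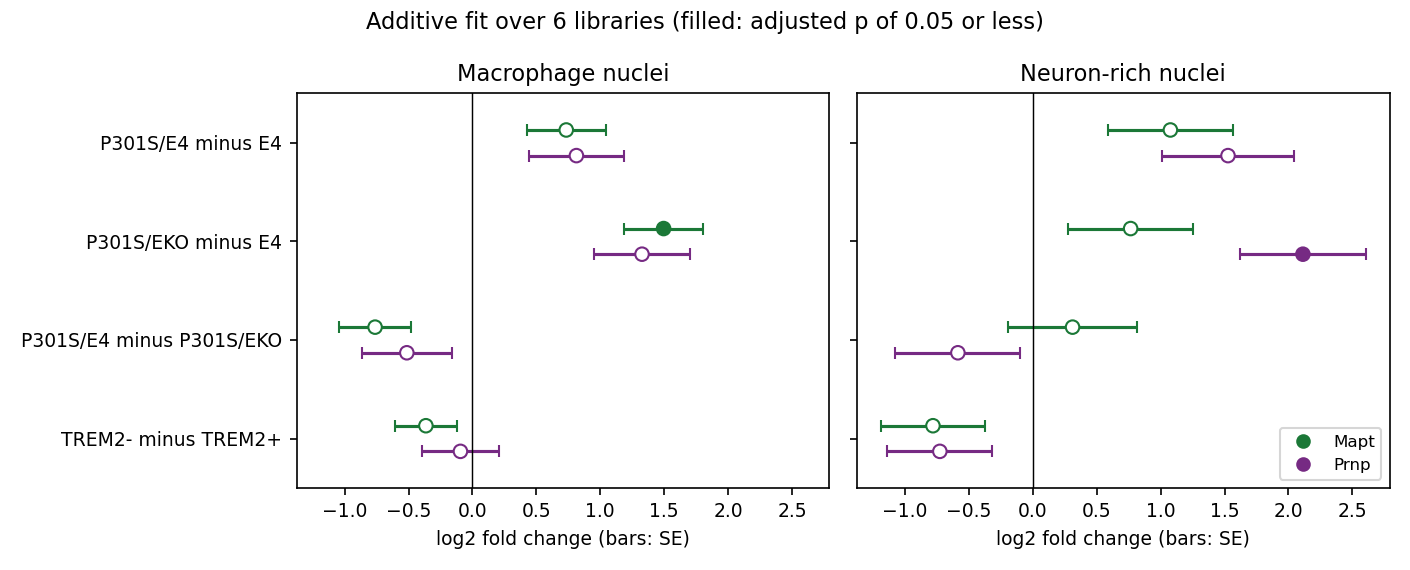
Log2 fold changes of Mapt and Prnp in the additive fit over 6 libraries for 4 comparisons, in macrophage nuclei (left) and neuron-rich nuclei (right), with SE as bars and filled points for an adjusted p of 0.05 or less. The filled points are Mapt at 1.50 in macrophage nuclei and Prnp at 2.11 in neuron-rich nuclei, both in P301S/EKO minus E4.

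The level of neuronal RNA in macrophage nuclei differed between libraries, so both genes were set against the neuronal panel in the same nuclei. Per 100 panel UMIs in macrophage nuclei, Mapt had 12.7, 15.6, 11.3 and 13.3 UMIs in P301S/E4/TREM2-, P301S/E4/TREM2+, P301S/EKO/TREM2- and P301S/EKO/TREM2+, against 3.76 in E4/TREM2- and 4.28 in E4/TREM2+. Prnp had 22.9, 29.97, 21.4 and 17.7 in these P301S libraries, against 7.86 and 6.57 in E4/TREM2- and E4/TREM2+. The 4 P301S libraries, P301S/E4/TREM2- included, all lay above both E4 libraries. For Mapt their counting intervals overlapped. For Prnp those of P301S/EKO/TREM2- (18.3 to 24.9) and P301S/EKO/TREM2+ (14.9 to 20.9) lay below that of P301S/E4/TREM2+ (26.4 to 34.0) without overlap. The means of the P301S libraries were 13.2 ± 1.76 for Mapt and 23.0 ± 5.15 for Prnp (SD, n = 4), against 4.02 ± 0.366 and 7.21 ± 0.910 in E4 (SD, n = 2). The ratio of geometric means was 3.25 for Mapt and 3.13 for Prnp. By the exact permutation test, two-sided, p was 0.133 for each, the smallest that 15 splits of 4 against 2 libraries allow.

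The same order, every P301S library above both E4 libraries, held for 21.8% of the 12136 tested genes per panel UMI. Over all nuclei it held for 66.2% of 12515 genes, beside 4.37-fold for Mapt and 5.55-fold for Prnp, and the E4 libraries held most of the neuron-rich nuclei. The panel in macrophage nuclei was 109, 185, 313 and 253 CPM in P301S/E4/TREM2-, P301S/E4/TREM2+, P301S/EKO/TREM2- and P301S/EKO/TREM2+, against 309 CPM in E4/TREM2- and 278 in E4/TREM2+. In P301S/E4/TREM2- the panel was thus low, while Mapt in CPM was near E4.

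Ratios within neuron-rich nuclei were lower in every library. There, Mapt had 0.831, 6.70, 1.53 and 3.102 UMIs per 100 panel UMIs in P301S/E4/TREM2-, P301S/E4/TREM2+, P301S/EKO/TREM2- and P301S/EKO/TREM2+, against 0.942 in E4/TREM2- and 1.03 in E4/TREM2+. Prnp had 0.958, 5.46, 2.16 and 6.20 in these P301S libraries, against 0.692 in E4/TREM2- and 0.544 in E4/TREM2+. The size of this gap depended on the genes set below the ratio. The rule and panel genes together without Meg3 and Snhg11 were a set chosen after seeing the data. Against this set, the exact conditional binomial intervals of Mapt in macrophage and neuron-rich nuclei overlapped in 3 of 6 libraries. In P301S/E4/TREM2+ Mapt then had 11.8 (95% interval 10.0109 to 13.9) per 100 UMIs in macrophage nuclei and 10.2 (6.57 to 15.1) in neuron-rich nuclei. In E4/TREM2- it had 2.87 (2.07 to 3.87) and 1.83 (1.35 to 2.42), and in E4/TREM2+ 3.16 (2.26 to 4.31) and 1.60 (0.959 to 2.51). Prnp was higher in macrophage nuclei in 6 of 6 libraries with no overlap of the intervals.

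Against 7 astrocyte genes, the groups were not apart. In macrophage nuclei Mapt had 3.33, 4.15, 6.45 and 7.02 UMIs per 100 astrocyte UMIs in P301S/E4/TREM2-, P301S/E4/TREM2+, P301S/EKO/TREM2- and P301S/EKO/TREM2+, against 3.30 in E4/TREM2- and 3.79 in E4/TREM2+. Prnp had 5.99, 7.996, 12.2 and 9.36 in these P301S libraries, against 6.90 in E4/TREM2- and 5.83 in E4/TREM2+. P301S/E4/TREM2- lay between the E4 libraries for both genes. P301S/E4/TREM2+ and both P301S/EKO libraries stood above both E4 libraries, P301S/E4/TREM2+ with intervals that overlap those of E4. The astrocyte genes themselves had 417, 693, 551 and 478 CPM in the P301S macrophage nuclei in that order, against 352 in E4/TREM2- and 313 in E4/TREM2+. All 4 P301S libraries exceeded both E4 libraries for this sum, but the single genes did not all do so. In P301S/E4/TREM2-, Slc1a3 had 285 CPM, against 196 in E4/TREM2- and 199 in E4/TREM2+, and Gfap and Aqp4 were also above both. There Slc1a2 had 59.6 CPM, against 116 and 89.5 in E4/TREM2- and E4/TREM2+. Gja1 and Gpc5 were also below both, and Aldh1l1 lay between them. The part of the astrocyte sum in the Mapt and Prnp result was not tested.

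**Figure D3:**
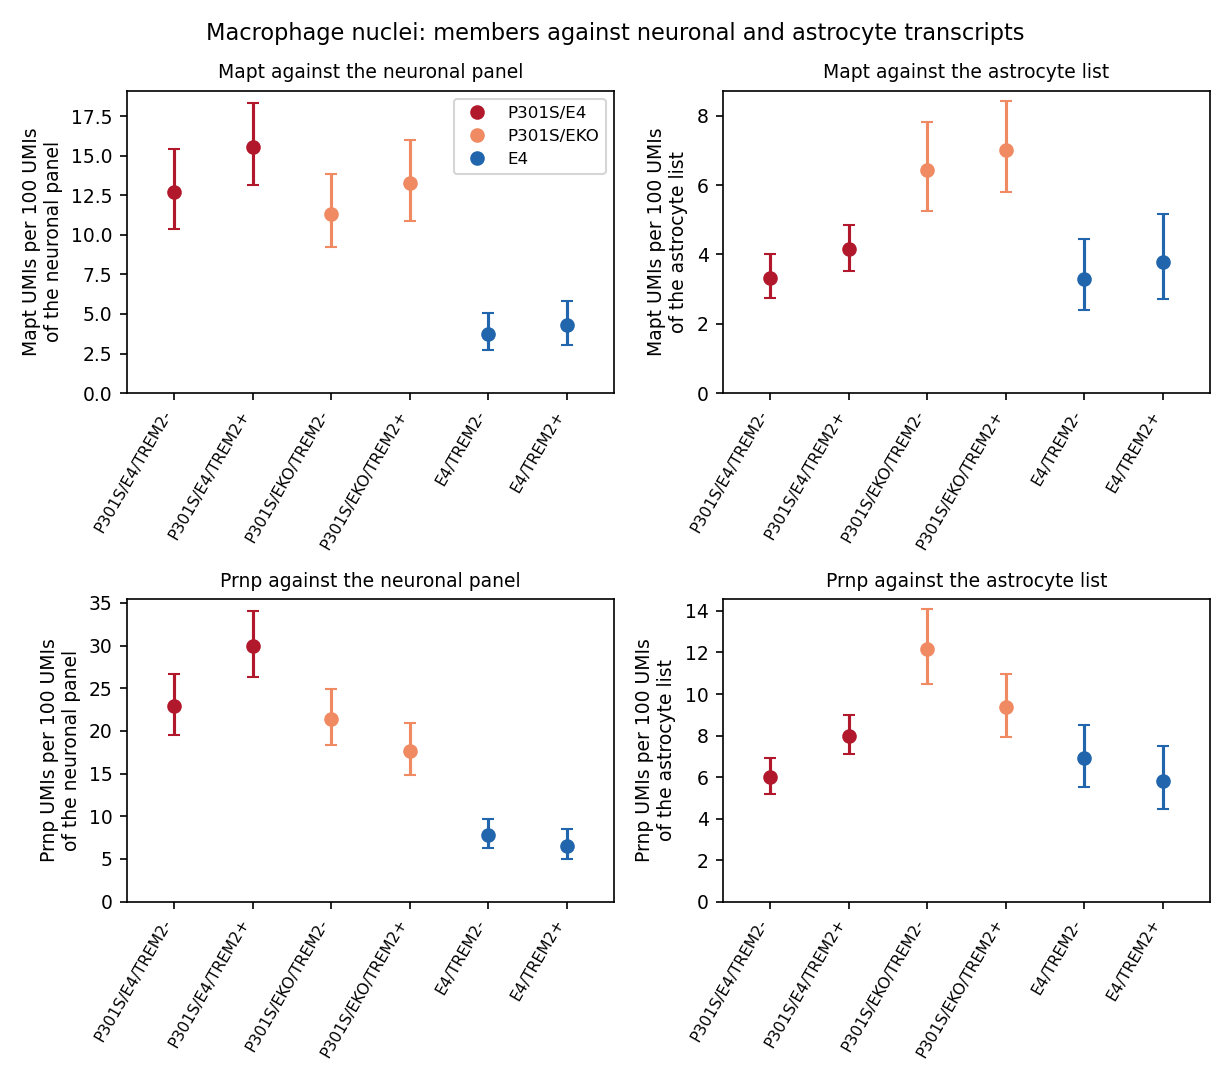
Mapt (top) and Prnp (bottom) UMIs in macrophage nuclei per 100 UMIs of the neuronal panel (left) and of the astrocyte list (right), by library with 95% counting intervals. Against the neuronal panel the 4 P301S libraries lie above both E4 libraries. Against the astrocyte list P301S/E4/TREM2- lies between the E4 libraries. P301S/E4/TREM2+ and both P301S/EKO libraries lie above them there. Intervals overlap those of E4 in P301S/E4/TREM2+ for both genes and in P301S/EKO/TREM2+ for Prnp.

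Set among 26 neuronal genes in macrophage nuclei, Mapt and Prnp had the highest difference between P301S and E4 libraries, with mean log2 differences of 1.74 and 1.69. Each gene was taken per UMI of the other neuronal genes without Meg3 and Snhg11, the set chosen after seeing the data. The next were Rbfox3, which encodes the NeuN protein that marks neuronal nuclei, at 1.10, and Kcnip4, a potassium channel partner, at 1.02. The 26 genes ran from -0.42 for Grin2b, an NMDA receptor subunit, to 1.10, with a median of 0.088. In 4 of the 26, and in both Mapt and Prnp, every P301S library lay above both E4 libraries, and in 1, Celf4, every P301S library lay below.

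**Figure D4:**
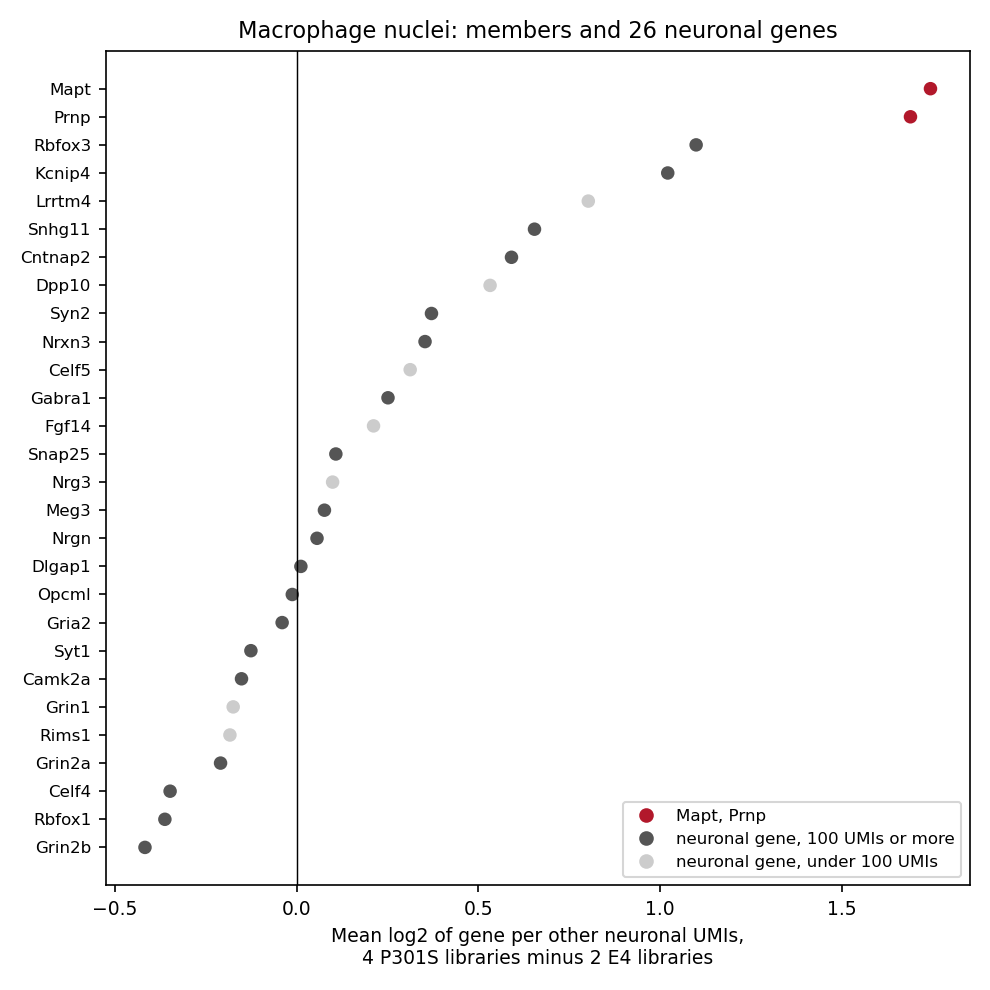
Mean log2 of each gene per UMI of the other neuronal genes, 4 P301S libraries minus 2 E4 libraries, in macrophage nuclei. Mapt, Prnp and 26 neuronal genes are ordered by value, and Meg3 and Snhg11 are left out of the genes set below the ratio. Mapt at 1.74 and Prnp at 1.69 lie above the 26 genes, whose highest is Rbfox3 at 1.10.

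Macrophage nuclei were then grouped by their own neuronal UMIs over those 26 genes. Nuclei with none made up 82.1% and held 64.0% of the macrophage Mapt UMIs and 63.4% of the Prnp UMIs. In them, Mapt had 11.5, 25.2, 30.5 and 27.1 CPM in P301S/E4/TREM2-, P301S/E4/TREM2+, P301S/EKO/TREM2- and P301S/EKO/TREM2+, against 9.54 in E4/TREM2- and 8.62 in E4/TREM2+. Prnp had 23.5, 43.6, 53.6 and 37.0 CPM in these P301S libraries, against 19.1 in E4/TREM2- and 13.9 in E4/TREM2+. The ratios of the means were 2.60 for Mapt and 2.39 for Prnp, and every P301S library lay above E4, as it did for 17.6% of tested genes in these nuclei. In the 68 nuclei with 5 or more neuronal UMIs, levels were higher and the groups overlapped, with 101 to 488 CPM in P301S and 163 to 166 in E4 for Mapt, and 129 to 1074 and 196 to 532 CPM for Prnp.

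**Figure D5:**
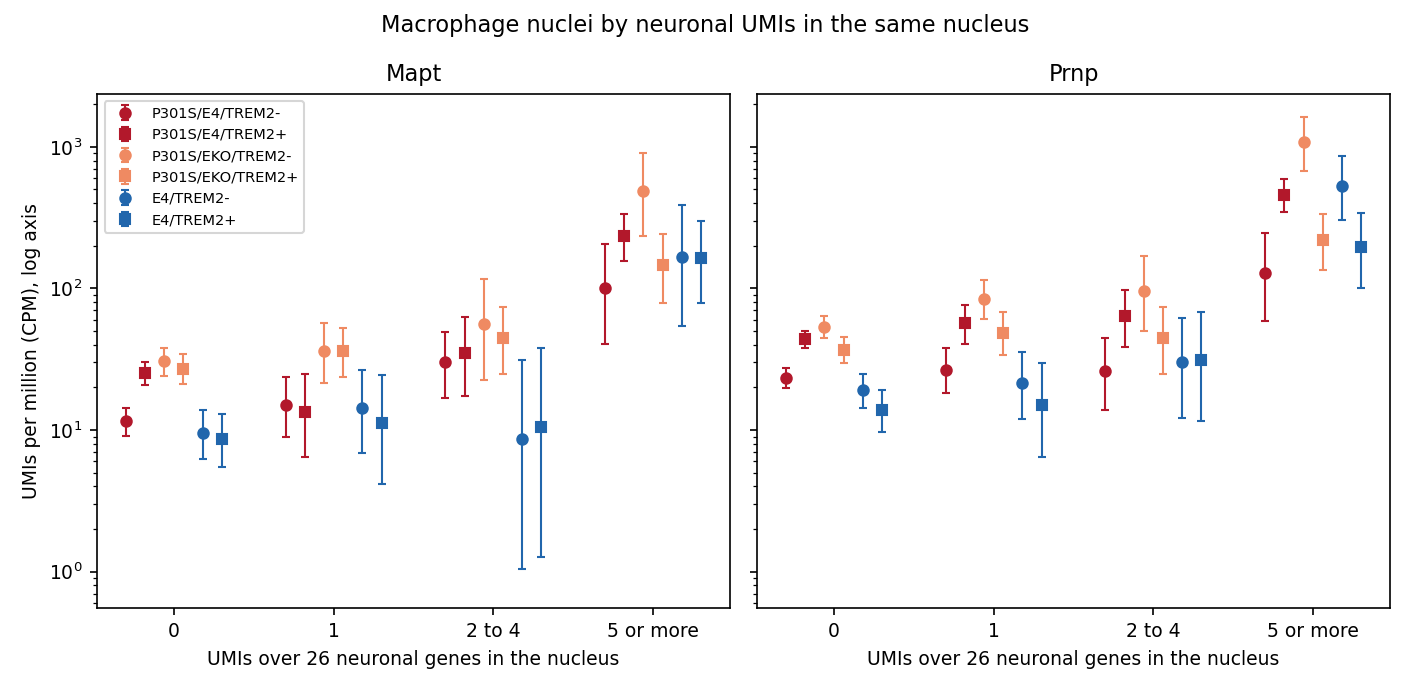
Mapt (left) and Prnp (right) in CPM, log axis, in macrophage nuclei grouped by their neuronal UMIs, by library with exact 95% Poisson intervals. In nuclei with 0 neuronal UMIs every P301S library lies above E4, and in nuclei with 5 or more the levels are higher and the groups overlap.

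Macrophage nuclei with neither neuronal nor astrocyte UMIs numbered 19702, or 62.6% of the class, and were looked at after the data had been seen. Mapt had 12.2, 24.5, 34.9 and 26.5 CPM there in P301S/E4/TREM2-, P301S/E4/TREM2+, P301S/EKO/TREM2- and P301S/EKO/TREM2+, against 10.6 in E4/TREM2- and 8.44 in E4/TREM2+. Prnp had 22.7, 41.9, 58.7 and 37.6 CPM in these P301S libraries, against 21.5 CPM in E4/TREM2- and 14.7 in E4/TREM2+. The order of libraries stayed as in all macrophage nuclei in having both E4 libraries lowest, an order shared by 16.1% of tested genes.

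Both genes were detected somewhat more often in nuclei that held other neuronal RNA. In macrophage nuclei thinned to 500 UMIs, Mapt was detected in 1.51% (1.12% to 1.99%) of 3250 nuclei with a neuronal UMI and in 0.929% (0.813% to 1.06%) of 24541 without, and the share was higher with one in 6 of 6 libraries. Prnp was detected in 2.65% (2.12% to 3.26%) with a neuronal UMI and in 1.66% (1.50% to 1.83%) without, higher in 5 of 6 libraries, the exception being P301S/E4/TREM2-. Mapt was found in 12 of 493 nuclei with Prnp (2.43%, 1.26% to 4.21%) and in 0.971% (0.858% to 1.09%) of those without. The share was higher with Prnp in the 4 P301S libraries, of which P301S/E4/TREM2- rests on 1 nucleus. In E4/TREM2- it was 0 of 48 nuclei with Prnp (upper limit 7.40%), against 0.419% without. In E4/TREM2+ it was 0 of 26 (upper limit 13.2%), against 0.481%. These limits lie above the share with Prnp in every P301S library, so too few nuclei were present to set E4 apart from P301S. Nuclei of different libraries are pooled in these shares, and libraries differ in level.

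Other genes of tau and prion protein biology were read in the same macrophage fit, P301S/E4 against E4, where the median over all tested genes was -0.0063. Of 22 microtubule-associated proteins, 20 were tested, 0 rose and 3 fell, with a median of -0.014, while 7% of all tested genes rose and 6.27% fell. Map2, a dendritic relative of tau, fell by 1.45 on the log2 scale (SE 0.38, edgeR adjusted p = 0.0289), to 8.33 and 16.4 CPM in P301S/E4/TREM2- and P301S/E4/TREM2+, against 35.4 and 28.4 in E4/TREM2- and E4/TREM2+. Map1b, which acts on growing axons, fell by 1.19 (SE 0.29, edgeR adjusted p = 0.0206), and Clasp2, which binds microtubule ends, fell by 0.50 (SE 0.14, edgeR adjusted p = 0.0346). Of 25 kinases and phosphatases of tau, 23 were tested, 0 rose and 1 fell, with a median of -0.051. That was Camk2a, a kinase of excitatory synapses that is also in the neuronal panel, at -1.41 (SE 0.26, edgeR adjusted p = 0.00466).

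Among 14 genes of tau binding, uptake and turnover, all tested, 2 rose and 3 fell, with a median of -0.18. Sorl1, a sorting receptor of endosomes, rose by 1.05 (SE 0.16, edgeR adjusted p = 0.00165), and the stress-regulated chaperone partner Fkbp5 rose by 0.63 (SE 0.17, edgeR adjusted p = 0.0346). The sorting receptor Sort1 fell by 0.84 (SE 0.13, edgeR adjusted p = 0.00198). Of 13 members of the prion protein family and its partners, 8 were tested, with a median of -0.73. Here Lgals3bp, a secreted glycoprotein that binds galectins, rose by 2.51 (SE 0.20, edgeR adjusted p = 3.46e-05). The glutamate receptor Grm5 fell by 1.57 (SE 0.46, edgeR adjusted p = 0.0486), and Adam10, a protease that sheds the prion protein, fell by 0.70 (SE 0.12, edgeR adjusted p = 0.00335).

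Of 13 genes beside Mapt and Prnp on their chromosomes, 8 were tested and 1 rose, the vitamin C transporter Slc23a2 near Prnp, at 0.57 (SE 0.17, edgeR adjusted p = 0.0499), with a median of 0.26. In the same fit, 6 of 16 tested genes of the neuronal panel fell and 0 rose, with a median of -1.04, and 2 of 5 tested genes of the rule fell. Grin2b fell by 1.74 (SE 0.33, edgeR adjusted p = 0.00563) and Rbfox1, a splicing factor of neurons, by 1.63 (SE 0.22, edgeR adjusted p = 0.000682). Of the 5 tested astrocyte genes, 2 rose and 0 fell. Gfap, the intermediate filament of reactive astrocytes, rose by 2.64 (SE 0.35, edgeR adjusted p = 0.000659), at 46.7 and 80.3 CPM in P301S/E4/TREM2- and P301S/E4/TREM2+, against 11.3 and 7.82 in E4/TREM2- and E4/TREM2+. Mapt and Prnp, at 0.73 and 0.81, were not called. Their sign was opposite to that of the 6 called panel genes and the same as that of the 2 called astrocyte genes, Gfap and Slc1a3. Slc1a3 was above Slc1a2 in macrophage nuclei of every library, with 2361 against 494 UMIs of a list sum of 3453 in P301S/E4/TREM2-. In neuron-rich nuclei it was below Slc1a2 in every library, with 22 against 91 UMIs in P301S/EKO/TREM2-. The source of these UMIs was not tested. Of the excitatory neuron markers 1 of 3 tested fell, and 0 of 3 inhibitory neuron and 0 of 4 oligodendrocyte markers were called.

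In P301S/EKO against E4, where Mapt was called, the microtubule, kinase, binding, neighbour, neuronal and oligodendrocyte lists had 0 calls among the same tested genes. The exceptions in other lists were Lgals3bp at 2.02 (SE 0.20, edgeR adjusted p = 0.000534) and Gfap at 2.11 (SE 0.37, edgeR adjusted p = 0.0116). The neuronal panel had a median of -0.047 there, against -0.0047 over all genes, and the astrocyte genes 0.49. Over all nuclei in P301S/E4 against E4, 16 of 18 panel genes and 5 of 5 rule genes fell, where 9.24% of all tested genes fell. Of the microtubule-associated proteins 5 of 20 fell, with Map1a at -1.26 and Stmn3 at -1.20.

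The genes whose levels over the 6 libraries were most like Mapt were found by Pearson's r of log2(CPM + 10) in all nuclei, among 7555 genes with at least 500 UMIs, as a description of 6 libraries. Among the first 5 were Slamf9 (r 0.990), the mitochondrial co-chaperonin Hspe1 (0.989), the lipid phosphatase Plpp3 (0.989) and the glutamate transporter Slc1a2 (0.989). Slc1a2, one of the 7 astrocyte genes, had 84.0, 214, 281 and 280 CPM in P301S/E4/TREM2-, P301S/E4/TREM2+, P301S/EKO/TREM2- and P301S/EKO/TREM2+, against 137 in E4/TREM2- and 122 in E4/TREM2+. Most like Prnp were Txndc9 (0.993), Phtf1os (0.992), Naxd (0.989), the ribosomal protein gene Rps10 (0.981) and S100b (0.979), a calcium-binding protein of astrocytes. Mapt and Prnp had r 0.973 with each other, and 15 genes were more like Mapt and 10 more like Prnp. All genes are read from the same 6 libraries, so within a library they share its pool, depth and makeup of classes.

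In the authors' deposited table of P301S/E4/TREM2+ against P301S/E4/TREM2-, Mapt had a log fold change of 1.15 (p = 0.148) and Prnp of 1.01 (p = 0.0341), both with an adjusted p of 1. That table puts TREM2+ on top, so its sign is opposite to the TREM2- over TREM2+ values above, and the base of its logarithm is not stated. In the authors' deposited table of TERM against homeostatic nuclei, a microglial state against resting microglia in their naming, Mapt had -0.64 (p = 0.118) and Prnp 0.05 (p = 0.864), both with an adjusted p of 1. Both sets of p-values were calculated over nuclei and not over libraries.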

How the data were processed

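PU.1-sorted hippocampal nuclei were measured in 6 libraries, 1 per genotype. The authors deposited raw UMI counts per gene and nucleus, made with Cell Ranger 3.0.1 per the file headers and mm10 per the labels' protocols. The labels state that the sort excluded doublets, and no doublet caller was run here. The authors' deposited tables hold p-values over nuclei and log fold changes of unstated base, taken here as a score. Members and gene lists were chosen with earlier results of these data known. UMIs were summed per library and class of nuclei, and tested with edgeR 4.0.16 in R 4.3.3 (TMM, filterByExpr by TREM2 genotype, quasi-likelihood F test, Benjamini-Hochberg over all tested genes). A gene was called at an adjusted p of 0.05 or less. The SE is the absolute log2 fold change divided by the square root of F. The script was tested on simulated data. DESeq2 1.42.0 was an alternative. Ratios to gene lists were tested with 0.5 UMIs added to both sums, by exact permutation. Thinning to 500 UMIs used a fixed seed. Intervals are 95% exact Poisson or Clopper-Pearson, and for library pairs and ratios to gene lists conditional binomial. Gene locations come from GENCODE vM21 (GRCm38), and the promoter from RefSeq, where Prnp matched. Named genes were Mapt and Prnp, Trem2 and Apoe as label checks, at most 4 called genes per list, and the 5 genes most like each member. The genes named by rank among 26 neuronal genes were chosen after their values were seen. Some genes that these rules name are not reported here.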

Additional observations from a re-analysis of the deposited data

Results flagged for a closer look

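Prnp moved in opposite directions in macrophage nuclei of different backgrounds. TREM2- over TREM2+ was -1.15 on the log2 scale in P301S/E4 and 0.58 in P301S/EKO. P301S/E4 over P301S/EKO was -1.43 in TREM2- and 0.31 in TREM2+. Each of these 4 values is 1 library against 1 library with a counting interval that does not reach 0, and the differences between backgrounds and between TREM2 genotypes were not tested, since each genotype had 1 library. Of these, 3 involve a P301S/E4 library, and P301S/E4/TREM2- had the lowest Prnp level among the P301S libraries, at 25.0 CPM.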

How the results depend on the processing

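No paired analysis was possible because each genotype had 1 library and the labels give no shared replicate number. Over 22 results and 298 alternatives, 253 kept direction and side of the threshold, 15 gained a call, 10 lost one and 20 changed sign. These include the permutation results, with 12 alternatives each. They could not reach 0.05 in any setting, so only their direction could change. Leaving out 1 library at a time moved log2 fold changes of macrophage nuclei as follows, lowest and highest. P301S/E4 minus E4 ran from 0.10 to 1.29 for Mapt and from -0.12 to 1.64 for Prnp. P301S/EKO minus E4 ran from 1.10 to 1.89 for Mapt and from 0.71 to 1.84 for Prnp. TREM2- minus TREM2+ ran from -0.65 to 0.091 for Mapt and from -0.49 to 0.57 for Prnp. P301S/E4 minus P301S/EKO ran from -1.39 to -0.20 for Mapt and from -1.45 to 0.31 for Prnp. In neuron-rich nuclei, P301S/E4 minus E4 ran from -0.021 to 1.99 for Mapt, P301S/EKO minus E4 from 1.26 to 3.20 for Prnp, and P301S/E4 minus P301S/EKO from -0.88 to 1.24 for Mapt and from -1.38 to 0.078 for Prnp. Over all nuclei, P301S/E4 minus E4 ran from -0.53 to 0.80 for Mapt and from -0.27 to 1.29 for Prnp. A lone library left in a background is assumed to vary like the others. With no filter on low counts, P301S/E4 minus E4 was called for Mapt (0.77) and Prnp (0.85) in macrophage nuclei and for Prnp over all nuclei (0.59), P301S/EKO minus E4 for Prnp (1.34) and P301S/E4 minus P301S/EKO for Mapt (-0.73) in macrophage nuclei. The many genes near 0 this setting adds also enter the fit of the spread. With at least 500 genes per nucleus, Mapt in P301S/EKO minus E4 lost its call (1.30) and over all nuclei was -0.32 in P301S/E4 minus E4, which was -0.028 without a filter on nuclei. In macrophage nuclei with 0 UMIs of the rule genes Prnp was called in P301S/EKO minus E4 (1.40). In neuron-rich nuclei, Prnp in P301S/EKO minus E4 was 2.16 with DESeq2, not called. In those with under 5 macrophage UMIs, Prnp had 1.04 in P301S/EKO minus E4, not called, 0.044 in TREM2- minus TREM2+ and 1.30 in P301S/E4 minus P301S/EKO. Alternatives chosen after seeing the data gave 0.039 for Prnp in TREM2- minus TREM2+, in macrophage nuclei with no neuronal or astrocyte UMIs, and -0.18 and -0.065 (without Gfap) for Mapt per astrocyte list in all nuclei, against 2.13 per neuronal panel. Where not stated, the cause was not tested. The count of called genes in macrophage P301S/E4 minus E4 was 1610, 1009 with DESeq2 and 726 to 3062 with 1 library left out. In P301S/EKO minus E4 it was 356, 727 without the low-count filter and 94 to 1227 with 1 library left out. In neuron-rich nuclei, P301S/EKO minus E4 had 26 calls, 5 with DESeq2 and 0 without the nucleus with most Mapt and Prnp UMIs together in each library, while 110 genes had an unadjusted p under 0.05 in the full class. Depth limits the neuron-rich nuclei, with 10 to 49 UMIs per gene and library, and the remaining nuclei, with 2 to 46.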
